A study of Mus musculus with 6 samples.

Results

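The apical progenitor and cortical patterning genes are 34 listed genes, markers and regulators of the dividing cells that line the ventricle of the embryonic cortex. They were found by symbol among the array rows that carry exactly 1 gene symbol, and for a gene with several rows the row with the highest mean over the 6 arrays was used. All 34 had a row and all 34 lay above the limit for dim genes, out of 22180 genes with such a row. They comprised 18 genes of progenitor identity, the 4 Id genes and 12 genes of area and regional patterning. Total RNA of the dissected cortex was measured in 3 embryos of the genotype Lats1F/F;Lats2F/F;Nestin-Cre (DKO, double knock-out) and in 3 embryos labelled control, all at E12.5, untreated and each a separate embryo. The labels do not give the genotype of the controls. Nestin-Cre acts in neural progenitors and their descendants, so other cells of the dissected tissue can keep intact alleles. The cortical markers Emx1, Emx2, Tbr1, Neurod6 and Eomes all lay above the limit for dim genes, a log2 signal of 5.02. So did 16724 of the 22180 genes, among them 12 of 13 ventral telencephalic markers, so this does not check the dissection. The question was how transcripts of progenitors and of cortical areas differ when Lats1 and Lats2, the kinases that restrain the coactivators YAP and TAZ, are deleted.

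Apical progenitors, the radial glia of the early cortex, keep their nuclei in the ventricular zone and span its wall with long processes. SoxB1 factors and Pax6 hold them in the progenitor state, Notch signalling and Id proteins delay neurogenesis, and opposed gradients of transcription factors such as Pax6, Emx2 and Nr2f1 divide the cortical sheet into areas. Id proteins have a helix-loop-helix domain without a DNA-binding region, and by binding E proteins they keep proneural factors from acting; they are well known as genes induced by bone morphogenetic protein (BMP) signalling.

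The values are log2 signals made by the authors with RMA, which equalises the distributions of the arrays, and the array medians lay between 5.94 and 5.97. Signals of different genes cannot be set against each other, since each row has its own probes. Lats1 had log2 signals of 7.82, 7.82 and 7.74 in the DKO arrays against 8.81, 8.34 and 8.98 in the control arrays, and passed the test (limma adjusted p = 0.0189). Lats2 had 7.36, 7.18 and 7.27 in DKO against 7.16, 6.84 and 7.11 in control cortex, with a limma adjusted p of 0.285, and all 3 DKO arrays lay above the controls. The sources used here do not give the deleted exons or the place of the Lats2 probes, so whether the Lats2 row bears on the deletion is not known. Differences below are in log2 units, control subtracted from DKO, and a gene was called when its limma p, adjusted by Benjamini and Hochberg over all 16724 genes tested, was under 0.05.

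Among the 34 genes 1 rose, 0 fell and 33 did not pass. This is 2.94% of them, where 1.72% of all genes tested were called, 1.36% higher and 0.359% lower in DKO. The lower share in particular depended on the fit, from 11 genes without control 1 to 162 with a trended prior, against 60 as reported. At an unadjusted p under 0.05 the counts were 4 higher and 8 lower, where 6.39% of all genes were higher and 9.18% lower; together this was 35.3% of the 34 against 15.6% of all genes. At an unadjusted p under 0.01 there were 6 (17.6%, against 6.1% of all genes). The 34 genes were chosen with earlier results of these data known, so these shares are a description. The single called gene was Ednrb, and the next by p were Vim, Sox9, Emx1, Nes and Sall3. Differences were small: the median absolute difference was 0.12 for the 34 genes and 0.08 for all genes tested. In whole tissue, fewer cells of a type and less RNA per cell cannot be told apart.

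**Figure D1:**
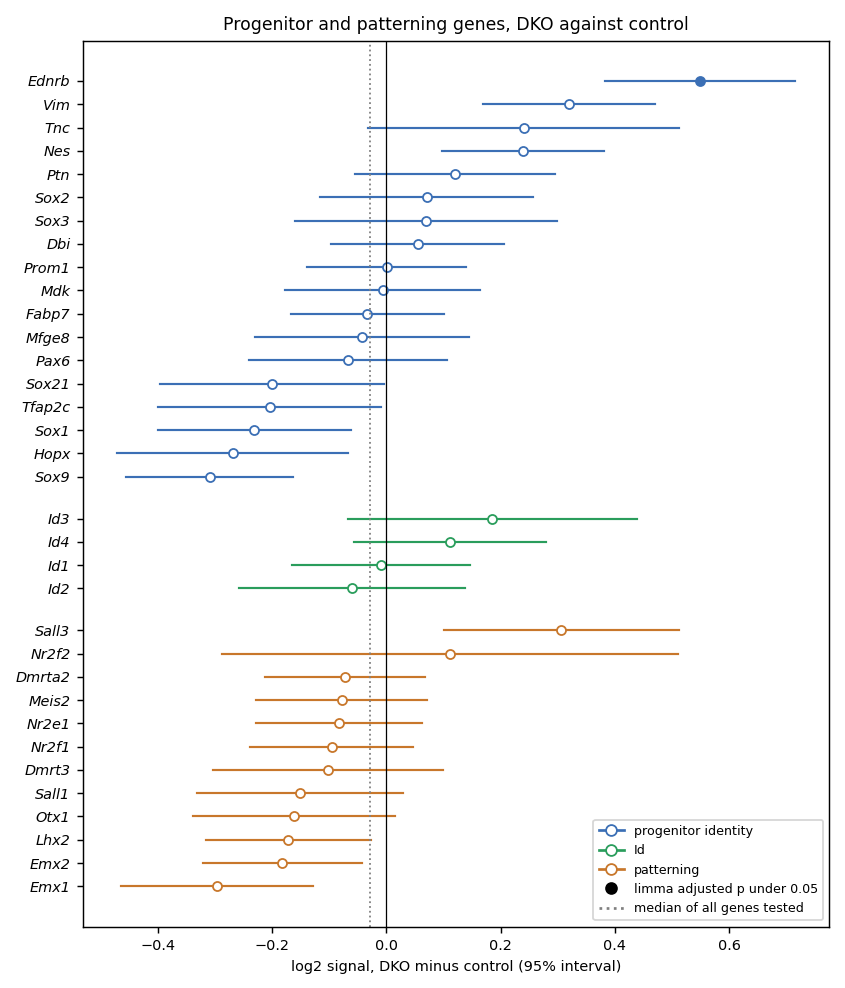
Difference in log2 signal, DKO minus control, for the 34 genes (x axis) by subgroup, with 95% intervals from the limma fit of 3 against 3 arrays. The filled point is the gene past the threshold (Ednrb, 0.55), and the dotted line is the median of all genes tested (-0.03).

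Ednrb encodes the endothelin B receptor, a G protein-coupled receptor of radial glia and neural crest derivatives. Its log2 signals were 9.54, 9.56 and 9.43 in the DKO arrays, against 8.87, 8.94 and 9.06 in the control arrays. Every DKO array stood above every control array, by more than the range of either group. Ednrb rose by 0.55 ± 0.07 (SE), a 1.46-fold higher signal, with a limma adjusted p of 0.00762. The 95% interval of the difference was 0.38 to 0.72, and Ednrb ranked 109 by p among the genes tested. By exact permutation over the arrays (two-sided) p was 0.1, the smallest that 3 against 3 can give. Leaving out any 1 of the 6 arrays kept the call, with adjusted p from 0.0152 to 0.0440. Ednrb is also made by endothelial cells. Of all genes tested, 60.2% had a lower mean in DKO and 9.18% were lower at an unadjusted p under 0.05. The 13 endothelial and pericyte markers tested had lower means in DKO, of which 0 passed and 4 had an unadjusted p under 0.05. Their mean log2 signal was 7.34, 6.92 and 7.41 in DKO arrays 1 to 3, against 7.58, 7.43 and 7.42 in control arrays 1 to 3, DKO 2 standing lowest. Without DKO 2 their median difference was -0.08 in place of -0.27 and 9 of the 13 had lower means, while Ednrb differed by 0.53 with an adjusted p of 0.0230. The part of vessels in the Ednrb difference was not tested.

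The sequence before the start of Ednrb is shown because it was the 1 gene called, beside those of Id3 and Id4, which held the motif searched. The search was for GGAATG, the core bound by the TEAD partners of YAP and TAZ, on both strands, so that CATTCC counted as well. These are the 250 bases before the annotated start, 5′ to 3′ on the strand of the gene, from RefSeq (GRCm38.p6), with any match in capitals. Ednrb lies on the minus strand at chr14:103843702-103843951, Id3 on the plus strand at chr4:136143572-136143821 and Id4 on the plus strand at chr13:48260866-48261115.
Ednrb: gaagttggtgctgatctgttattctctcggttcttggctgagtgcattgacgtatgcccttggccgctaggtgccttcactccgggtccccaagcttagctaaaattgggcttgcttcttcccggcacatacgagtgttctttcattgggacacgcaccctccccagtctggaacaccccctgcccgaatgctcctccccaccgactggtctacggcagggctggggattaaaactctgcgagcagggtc
Id3: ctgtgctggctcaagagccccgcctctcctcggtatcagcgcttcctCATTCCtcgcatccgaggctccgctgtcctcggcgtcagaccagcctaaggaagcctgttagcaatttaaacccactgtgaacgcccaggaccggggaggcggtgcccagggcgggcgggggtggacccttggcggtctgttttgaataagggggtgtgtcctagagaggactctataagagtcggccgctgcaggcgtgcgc
Id4: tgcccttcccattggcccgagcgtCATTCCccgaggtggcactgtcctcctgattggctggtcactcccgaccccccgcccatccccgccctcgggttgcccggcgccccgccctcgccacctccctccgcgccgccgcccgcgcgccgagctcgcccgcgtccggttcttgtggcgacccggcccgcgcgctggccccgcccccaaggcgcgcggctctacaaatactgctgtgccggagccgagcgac
Of the 34 genes 27 had an entry, with 36 starts in all, and 2 of these windows (5.56%) held a match, against 12.6% of all 32851 windows. The match began 203 bases before the start of Id3 and 226 bases before that of Id4. These windows had 62.8% and 75.6% G and C, against a median of 52.4% over all windows. A match is a description of the letters, not a site.

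The 18 progenitor identity genes had 9 higher and 9 lower means in DKO, with a median difference of -0.0024. They are described by kind of protein, a split that was not among the planned subgroups and whose contrast was not tested. Of the 18 genes, 10 encode structural, secreted or surface proteins and carriers: 1 rose (Ednrb), 0 fell, and 7 had a higher mean in DKO, with a median difference of 0.09. Vim encodes vimentin, the intermediate filament protein of radial glia, and is also strongly made by mesenchymal cells. Its main row had log2 signals of 12.92, 12.76 and 12.84 in DKO against 12.49, 12.56 and 12.51 in control cortex, without overlap. The difference was 0.32 ± 0.07 (SE), just short of the threshold at a limma adjusted p of 0.0573.

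A second, dimmer row of Vim gave a larger difference. Its log2 signals were 10.56, 10.34 and 10.41 in the DKO arrays, against 9.78, 9.98 and 9.78 in the control arrays. When every row was tested on its own, a choice made after seeing the data, this row differed by 0.59 ± 0.09 (SE) with a limma adjusted p of 0.0151. The mean of both Vim rows differed by 0.46, with an adjusted p of 0.0217, and the main row also passed with a stricter filter (0.0301), a trended prior (0.00396) and array weights (0.0314). The test of the dimmer row also covers a different set, 17641 rows. Of 10 meningeal markers, 3 had higher and 7 lower means in DKO, 0 passed and 0 had an unadjusted p under 0.05. Their mean log2 signal was 7.16, 6.33 and 6.92 in DKO arrays 1 to 3, against 7.04, 6.91 and 6.78 in control arrays 1 to 3. DKO 2 stood apart at the low end and was the lowest DKO array for both Vim rows as well; without it 8 of the 10 markers had higher means in DKO, with a median of 0.09 in place of -0.12. Without DKO 2 the main row of Vim differed by 0.36, with an adjusted p of 0.0530. The part of meningeal cells in the Vim difference was not tested.

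Nes encodes nestin, the intermediate filament protein that pairs with vimentin in neural progenitors. It had log2 signals of 9.89, 9.87 and 9.79 in DKO against 9.66, 9.60 and 9.58 in control cortex. Again no DKO array fell within the control range, but the difference of 0.24 ± 0.06 (SE) had a limma adjusted p of 0.114.

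Tnc encodes tenascin C, a matrix glycoprotein of the progenitor zones. DKO 1 stood at 7.09, apart from 6.67 and 6.66 in the other DKO arrays, against 6.68, 6.52 and 6.49 in the control arrays. Its difference of 0.24 ± 0.12 (SE) had a limma adjusted p of 0.384 and was 0.10 without DKO 1. The secreted growth factors pleiotrophin (Ptn) and midkine (Mdk) had differences of 0.12 and -0.0061, with limma adjusted p of 0.510 and 0.979; the Ptn difference was 0.06 without DKO 2. Fabp7, the brain fatty acid-binding protein of radial glia, differed by -0.03, with a 95% interval from -0.17 to 0.10. Prom1, which encodes the apical membrane protein prominin, differed by 0.0012 with an interval from -0.14 to 0.14. Dbi, an acyl-CoA-binding protein, and Mfge8, a secreted glycoprotein, differed by 0.06 and -0.04. Intervals of these 4 genes leave room for changes of up to 0.23 in size.

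The 8 transcription regulators of progenitor identity held no call, and 6 had a lower mean in DKO, with a median difference of -0.20. Of all genes tested, 60.2% had a lower mean. Sox9 came nearest to the threshold. Sox9, a SoxE factor of radial glia and later astrocytes, had log2 signals of 9.87, 9.89 and 9.98 in the DKO arrays, against 10.23, 10.16 and 10.27 in the control arrays. All DKO arrays lay below all controls, and the difference was -0.31 ± 0.06 (SE) with a limma adjusted p of 0.0581. Under 4 of 8 other settings Sox9 passed the threshold, with adjusted p down to 0.0104, and in 0 of the 6 fits without 1 array did it pass.

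The 3 SoxB1 genes gave unequal differences, which were not tested against each other. Sox1 had 8.83, 8.98 and 8.85 in DKO against 9.17, 9.01 and 9.16 in control cortex, which differed by -0.23 ± 0.07 (SE, limma adjusted p = 0.189). Sox2 had 9.87, 10.12 and 9.87 in the DKO arrays, against 9.94, 9.86 and 9.86 in the control arrays. Here the groups overlapped and DKO 2 stood highest; the difference was 0.07 ± 0.08 (SE) with a limma adjusted p of 0.732 and an interval from -0.12 to 0.26. Sox3 had 8.55, 8.55 and 8.91 in DKO against 8.57, 8.62 and 8.60 in control cortex, so that DKO 3 alone stood above the control range. Its difference was 0.07 ± 0.10 (SE), with a limma adjusted p of 0.792.

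Sox21, a SoxB2 factor that counteracts SoxB1 proteins, had a difference of -0.20 ± 0.09 (SE) without overlap between the groups, and a limma adjusted p of 0.311. It was -0.12 without control 3, and a dimmer second row of Sox21 differed by -0.07. Hopx, a homeodomain-only protein known in later outer radial glia, differed by -0.27 ± 0.09 (SE), also without overlap, with an adjusted p of 0.197. Tfap2c, an AP2 factor of apical progenitors, differed by -0.20 ± 0.09 (SE) with overlap and an adjusted p of 0.298. Pax6, the paired-domain factor of dorsal progenitors, had 9.68, 9.64 and 9.58 in DKO against 9.77, 9.56 and 9.77 in control cortex. Its groups overlapped, control 2 being the lowest of all 6 arrays, and the difference was -0.07 ± 0.08 (SE) with a limma adjusted p of 0.728. The 95% interval for Pax6 ran from -0.24 to 0.11. Its difference was -0.14 without control 2, -0.03 without control 1 or control 3 and -0.04 without DKO 3.

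**Figure D2:**
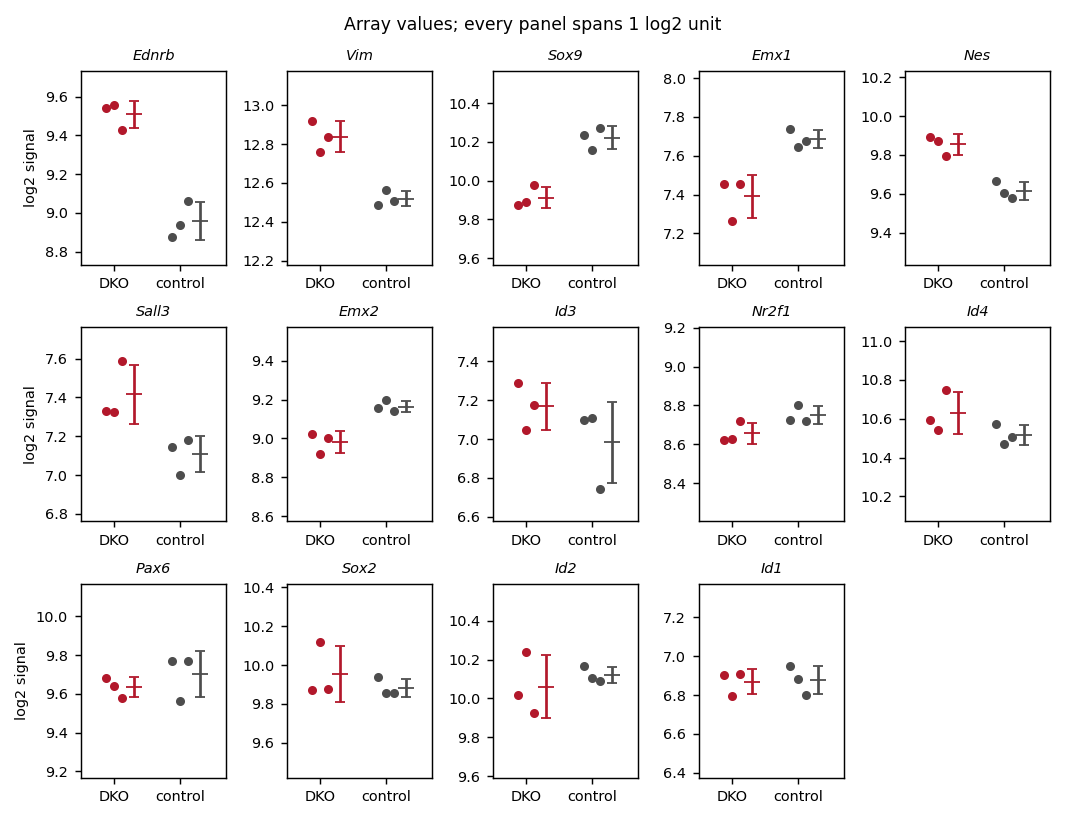
Log2 signal of each array (points), DKO left and control right, with mean and SD (bars, n = 3) for the 6 genes with an unadjusted p under 0.01 and for Id1 to Id4, Pax6, Sox2, Emx2 and Nr2f1. Each panel spans the same range of 1 log2 unit; groups stand clear of each other for Ednrb, Vim, Sox9, Emx1, Nes, Sall3 and Emx2, and narrowly for Nr2f1.

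None of the 4 Id genes passed, 0 of them had an unadjusted p under 0.05, and for each of them the groups overlapped. Id1 had log2 signals of 6.91, 6.79 and 6.91 in the DKO arrays, against 6.95, 6.88 and 6.80 in the control arrays, and its difference of -0.0089 ± 0.07 (SE) changed sign with repeated quantile normalization. Id2 had 10.02, 10.24 and 9.93 in DKO against 10.17, 10.11 and 10.09 in control cortex, with DKO arrays on both sides of the controls. Id3 had 7.29, 7.05 and 7.17 in DKO against 7.10, 7.11 and 6.74 in control cortex, where control 3 stood low. Id4, the member known for its role in the timing of cortical neurogenesis, had 10.59, 10.54 and 10.75 in DKO against 10.57, 10.47 and 10.51 in control cortex.

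In size, the Id2, Id3 and Id4 differences were -0.06 ± 0.09, 0.19 ± 0.11 and 0.11 ± 0.07 (SE), with limma adjusted p of 0.791, 0.481 and 0.524. Without control 3 the Id3 difference was 0.065, and without DKO 3 that of Id4 was 0.05. The 95% intervals were -0.16 to 0.15 for Id1, -0.26 to 0.14 for Id2, -0.07 to 0.44 for Id3 and -0.06 to 0.28 for Id4, so a doubling or halving of the signal lay outside each.

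Genes of BMP signalling were set beside the Id genes. Of 21 listed, 18 were tested: 3 rose, 0 fell and 15 missed the threshold, with a median difference of -0.0024 against -0.03 over all genes. Of all genes tested, 1.36% were called higher. The list was drawn up with earlier results of these data known, so its counts are a description. Bambi, a decoy receptor that BMP signalling induces, had log2 signals of 8.18, 7.97 and 8.31 in DKO against 7.44, 7.45 and 7.23 in control cortex. It rose by 0.78 ± 0.10 (SE) with a limma adjusted p of 0.00690, and kept the call in all 6 fits without 1 array. Smad6, an inhibitory Smad that BMP signalling also induces, rose by 0.64 ± 0.09 (SE) with a limma adjusted p of 0.0123. It lost the call without control 2 (0.0533), control 3 (0.0653) and DKO 3 (0.0607). The ligand gene Bmp6 rose by 0.63 ± 0.12 (SE) with a limma adjusted p of 0.0391, and kept the call in 1 of these 6 fits, that without DKO 2. In the other 5 its adjusted p ran from 0.0782 without control 2 to 0.147 without control 1. The difference between these 3 genes and the Id genes was not itself tested.

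Genes of E proteins, which Id proteins bind, and proneural genes were listed together. All 8 tested genes among E proteins and proneural helix-loop-helix genes were lower on average in DKO, of which 1 fell and 0 rose, with a median of -0.33. Hes6, which promotes neurogenesis, fell by 0.33 ± 0.06 on the log2 scale (SE, limma adjusted p = 0.0336), and lost this call in each of the 6 fits without 1 array, with adjusted p from 0.0769 to 0.135. Neurog1, a proneural factor, differed by -0.56 ± 0.12 (SE, limma adjusted p = 0.0694) and the E protein gene Tcf4 by -0.32 ± 0.08 (SE, limma adjusted p = 0.115). The other E protein genes, Tcf3 and Tcf12, overlapped the controls. They differed by -0.09 and -0.04 (limma adjusted p = 0.570 and 0.810), where the median of all genes tested was -0.03. In the list of intermediate progenitor genes, the daughters of apical progenitors, all 10 had lower means, 3 fell and 0 rose, with a median of -0.43. Beside both lists, 60.2% of all genes tested had a lower mean and 0.359% were called lower. Both lists were drawn up with earlier results of these data known, so their counts are a description. Mfng kept its call in all 6 fits without 1 array, Gadd45g in 2 (adjusted p up to 0.0974, without DKO 1) and Btg2 in 0 (up to 0.149, without control 1).

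Patterning genes held no call: 0 of 12 rose, 0 fell and 12 did not pass, while 1 was higher and 3 lower at an unadjusted p under 0.05. Their means were lower in DKO for 10 of 12 (83.3%), against 60.2% of all genes tested, and their median difference was -0.10 against -0.03. These genes too were chosen with earlier results of these data known, so the shares are a description. By array, the median deviation of the 12 genes from the control mean was -0.10 in DKO 1, -0.14 in DKO 2 and -0.04 in DKO 3, against 0.0039, -0.03 and 0.01 in controls 1, 2 and 3.

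Emx1, a homeobox gene of the dorsal telencephalon, had the lowest difference of the 12. Its log2 signals were 7.46, 7.26 and 7.45 in the DKO arrays, against 7.74, 7.65 and 7.67 in the control arrays. The groups did not overlap, and the difference was -0.30 ± 0.07 (SE) with a limma adjusted p of 0.0994. Emx2, its relative that favours caudal and medial areas, had 9.03, 8.92 and 9.004 in DKO against 9.16, 9.20 and 9.14 in control cortex. All DKO arrays were lower here too, by -0.18 ± 0.06 (SE) on average, with a limma adjusted p of 0.206.

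Lhx2, a LIM-homeobox gene that keeps cortical tissue from turning into hem, had 10.80, 10.71 and 10.67 in DKO against 10.88, 10.87 and 10.94 in control cortex. This was a further gene without overlap, with a difference of -0.17 ± 0.06 (SE) and a limma adjusted p of 0.244. Markers of cortical hem and choroid plexus, the tissue medial to the cortex, are given beside these genes. They were listed with earlier results of these data known, so their counts are a description. Of all 16724 genes tested, 6660 had a higher mean in DKO and 1.36% were called higher. Of the 13 markers tested 2 rose, 0 fell and 11 did not pass, 12 had a higher mean in DKO, and the median was 0.47. In the fits without control 1, control 3 or DKO 1, 0 of them passed; refitting the accompanying lists without 1 array was chosen after seeing the data. Their mean log2 signal ranged from 6.38 to 6.78 in DKO and from 5.95 to 6.24 in control arrays. The transcription factor Lmx1a rose by 0.47 ± 0.06 (SE, limma adjusted p = 0.00982), but lost the call without control 1 (0.0583), control 3 (0.0540) and DKO 1 (0.0508). Its mean log2 signal in the control arrays, 5.31, lay near the limit for dim genes of 5.02. Ttr rose by 2.24 ± 0.41 (SE, limma adjusted p = 0.0371) and kept its call only without DKO 2 and without DKO 3, the largest adjusted p of the 6 fits being 0.141. The part of this hem and choroid plexus signal in the Emx1, Emx2 and Lhx2 differences was not tested.

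Nr2f1, the orphan nuclear receptor that specifies caudal sensory areas, had 8.62, 8.63 and 8.72 in DKO against 8.73, 8.80 and 8.72 in control cortex. The groups were separate by a margin of under 0.01, and the difference was -0.10 ± 0.06 (SE) with a limma adjusted p of 0.520. Nr2f2, a related receptor of caudal, medial and ventral tissue and of veins, had the widest spread of the 34 genes. Its log2 signals were 8.53, 8.63 and 8.75 in the DKO arrays, against 8.46, 8.96 and 8.16 in the control arrays, so that the controls alone spanned 0.80. The Nr2f2 difference was 0.11 ± 0.17 (SE, limma adjusted p = 0.809), 0.33 without control 2 and -0.07 without control 3. Ventral telencephalic markers had mean log2 signals of 6.63, 6.80 and 6.57 in DKO arrays 1 to 3. In control arrays 1 to 3 they had 6.85, 7.08 and 6.71, control 2 being highest as for Nr2f2. Among the DKO arrays the order differed, DKO 3 being highest for Nr2f2 and lowest for these markers. Hem and choroid plexus markers were also highest in control 2 among the controls (5.96, 6.24 and 5.95 in controls 1 to 3). The part of either tissue in the spread of Nr2f2 was not tested. Nr2e1, the receptor Tlx of neural stem cells, differed by -0.08 ± 0.06 (SE, limma adjusted p = 0.594).

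Sall3 and Sall1 are zinc finger genes of the spalt family, and their means differed in opposite directions. Sall3 had 7.33, 7.33 and 7.59 in DKO against 7.14, 7.002 and 7.18 in control cortex, without overlap, and differed by 0.31 ± 0.09 (SE, limma adjusted p = 0.153). Sall1 differed by -0.15 ± 0.08 (SE), with overlap and a limma adjusted p of 0.413; the contrast between the genes was not tested. Otx1, a homeobox gene of deep-layer progenitors, differed by -0.16 ± 0.08 (SE, limma adjusted p = 0.366), with all DKO arrays below the controls; without control 3, the highest array, the difference was -0.09. Meis2, Dmrta2 and Dmrt3, which encode a TALE homeodomain factor and 2 DM-domain factors of the medial cortex, differed by -0.08, -0.07 and -0.10, with limma adjusted p between 0.629 and 0.635. The Dmrt3 difference was -0.015 without DKO 2, where the lowest array is left out, and that of Meis2 ran from -0.12 without control 2 to -0.04 without control 3.

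**Figure D3:**
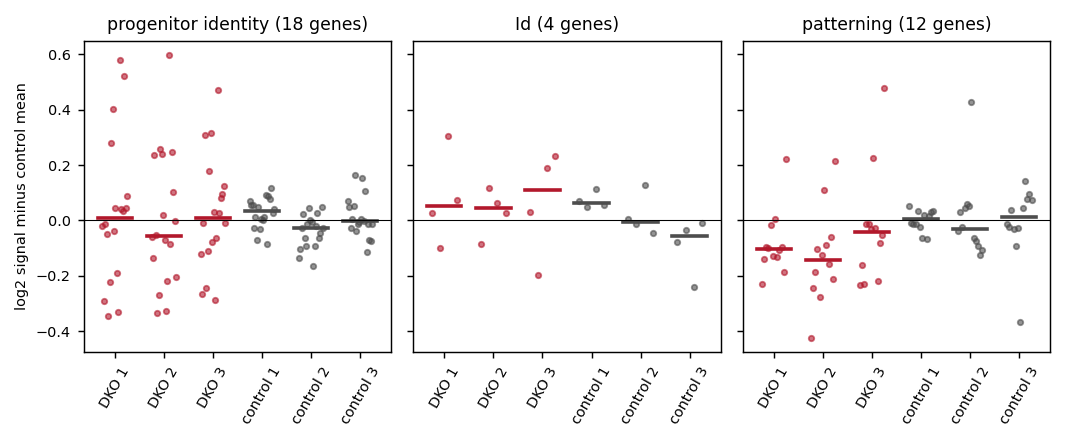
Log2 signal of each gene minus its control mean, by array (points), with the median of the subgroup (bars), DKO arrays left of control arrays. Medians of the patterning genes lie at -0.10, -0.14 and -0.04 in the DKO arrays, and those of the progenitor identity genes lie near 0 with points spread both ways.

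Over all 34 genes, 4 had every DKO array above every control array (11.8%, against 8.22% of all genes tested) and 9 had every DKO array below (26.5%, against 13.4%). Since the genes were chosen with earlier results of these data known, these shares are a description. The higher ones are Ednrb, Vim, Nes and Sall3, and the lower ones are Sox9, Sox1, Hopx, Sox21, Emx1, Emx2, Lhx2, Otx1 and Nr2f1. Of these 13 genes, Ednrb alone was called. For 22 of the 34 genes the 95% interval of the difference included 0, and for 30 it lay within 0.5 on either side of 0. The exceptions were Ednrb, Sall3, Tnc and Nr2f2.

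**Figure D4:**
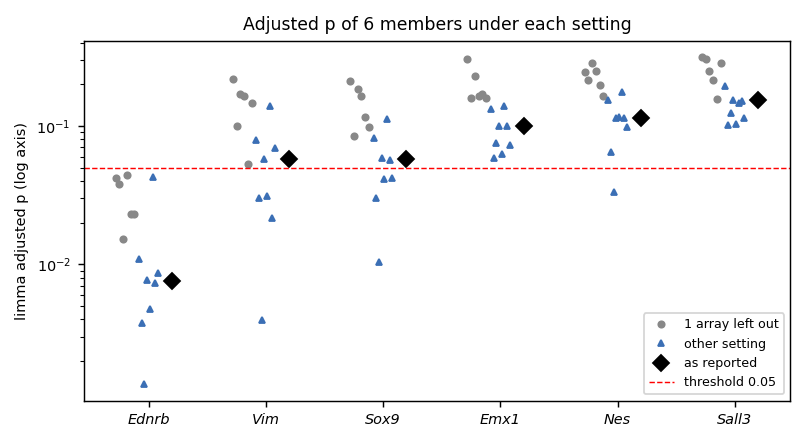
Limma adjusted p (log axis) of the 6 genes with the smallest p: as reported (diamonds), with 1 array left out (grey points) and under 8 other settings (triangles). Ednrb lies under the threshold of 0.05 in every fit shown; Vim and Sox9 lie under it in 4 of 8 other settings each, Nes in 1, and Emx1 and Sall3 in 0.

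Other genes of apical progenitors, which were not among the 34, held more calls. This list was drawn up with earlier results on these arrays known, so its counts are a description. Of 20 tested, 3 rose, 4 fell and 13 did not pass, with a median of -0.04. Over all genes tested 1.72% were called. The 3 with the smallest p were Hes5, the Notch-induced repressor, Aldoc, the aldolase of glia, and Ndrg2, a gene of astroglial lineages. Hes5 fell by 0.90 ± 0.09 (SE), Aldoc by 0.76 ± 0.10 (SE) and Ndrg2 by 0.93 ± 0.13 (SE), each on the log2 scale, with limma adjusted p of 0.00197, 0.00632 and 0.0101. Hes5 and Aldoc kept their calls in all 6 fits without 1 array and Ndrg2 in 4, with an adjusted p of 0.0561 without DKO 1 and 0.0525 without DKO 3. The 3 that rose were Tead1, Hmga2 and Slc1a3, by 0.45 ± 0.07, 0.51 ± 0.09 and 0.40 ± 0.08 (SE). Their limma adjusted p were 0.0193, 0.0373 and 0.0397, and they kept their calls in 1, 2 and 0 of the 6 fits. Of 21 other patterning genes tested, 0 rose and 0 fell, with a median of -0.02 and 2 higher and 4 lower at an unadjusted p under 0.05. The smallest p was that of Pou3f2, a POU factor of upper-layer neurons and their progenitors, at -0.56 ± 0.12 (SE, limma adjusted p = 0.0669). Of 16 neuron markers 0 passed, 7 were lower at an unadjusted p under 0.05 and 13 had lower means, with a median of -0.13. Among all genes tested, 6.39% were higher and 9.18% lower at an unadjusted p under 0.05, and 60.2% had a lower mean.

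**Figure D5:**
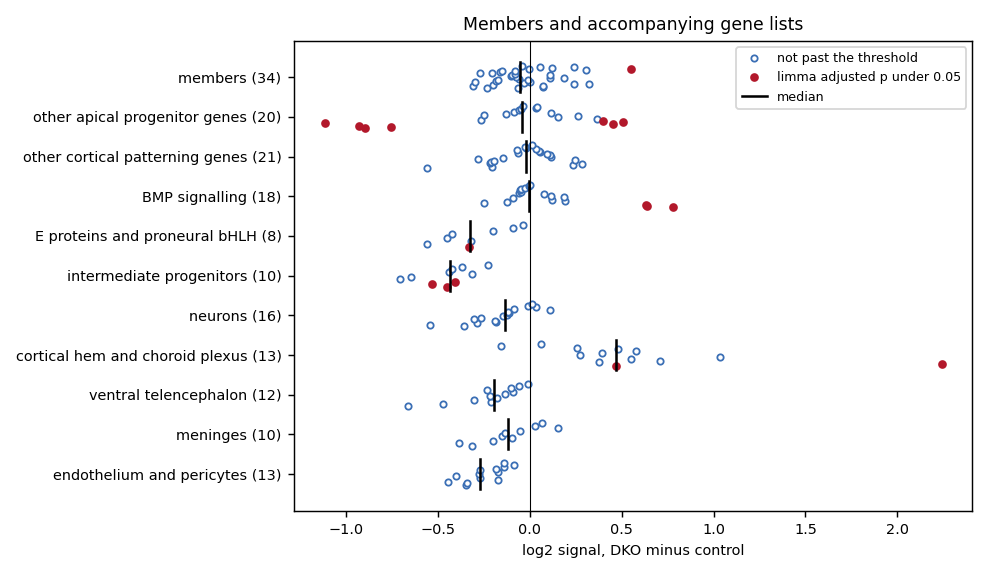
Difference in log2 signal, DKO minus control, of the 34 genes and of each accompanying list (number tested in brackets). Filled points are genes past the threshold, bars are medians: -0.05 for the 34 genes, 0.47 for hem and choroid plexus and -0.43 for intermediate progenitors.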

How the data were processed

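Total RNA of 6 cortices was measured on 1 Affymetrix whole-transcript array each. The authors deposited log2 values made by RMA, per the submitters' processing notes; the sources used here give neither its version nor the genome build of the probes. RMA removes any change common to all transcripts. The table held 41345 rows, of which 23521 carried 1 gene symbol in the platform annotation, 1814 several and 16010 are unnamed here. Genes with a mean below the 25th percentile of one-symbol rows (log2 5.02) were left out, leaving 16724 of 22180. DKO was compared with control with lmFit and eBayes of limma 3.58.1 under R 4.3.3 (two-sided tests, no covariate, 4 residual degrees of freedom plus 4.44 from the prior), with Benjamini-Hochberg adjustment over all genes tested. The number of arrays limits the precision.

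The members and lists were chosen with earlier results of these data known. Every member may be named; array values are given for those with an unadjusted p under 0.01 and for Id1 to Id4, Pax6, Sox2, Emx2 and Nr2f1. Array values of Sox1, Sox3, Tnc, Lhx2 and Nr2f2 were added after they were seen, as were those of Bambi. At most the 3 genes with the smallest p are named per list, apart from Tead1, Hmga2 and Slc1a3, added so that both directions are named. Tcf3 and Tcf12 were also added, so that every E protein gene of the list is given. Figures were drawn with matplotlib 3.10.9. The fit was checked on simulated data. In each of 5 draws 200 genes were changed, each by a log2 difference of 0.3, 0.5 or 1. Of those changed by 0.3, 14.9% were recovered on average over the draws. Recovery was 59.7% at 0.5 and 93% at 1. Most differences of 0.3 were missed, so a gene that did not pass may still differ by that much. Alternatives were other filters, variance priors, array weights, a replicate block, the mean over rows, repeated quantile normalization and leaving out each array.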

Additional observations from a re-analysis of the deposited data

How the results depend on the processing

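Ednrb kept its direction and its call under all 8 other settings and in all 6 fits without 1 array, with differences from 0.51 to 0.60 and adjusted p from 0.00136 to 0.0440. Calls of members rose to 2 higher and 1 lower with the stricter filter and with array weights (Ednrb and Vim, and Sox9), to 3 and 1 with the trended prior (Nes added), to 2 and 0 with the mean over rows, and stayed at 1 higher with 1 lower (Sox9) with repeated quantile normalization. Over all genes 288 were called (228 higher and 60 lower), 485 with the trended prior (323 and 162), 421 with the stricter filter (287 and 134) and with array weights (298 and 123), and from 134 (without control 3) to 314 (without DKO 2) when 1 array was left out; the fits without 1 array use fewer samples. In these fits members called were 1 higher and 0 lower each time. The subgroup medians ranged from -0.025 to 0.036 for progenitor identity (highest without DKO 2), from 0.0089 to 0.09 for Id and from -0.13 to -0.08 for patterning. The numbers shared by DKO and control arrays were not treated as pairs, since the labels do not tie them to litters. The deviations of same-numbered arrays correlated at -0.10, 0.21 and 0.15, and 1 of 3 DKO arrays matched its own number best. With so few arrays this cannot exclude pairing. With the replicate block 200 genes were called (176 higher and 24 lower), and Ednrb had an adjusted p of 0.0424.

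Some members with differences near 0 changed sign, as did Nr2f2, which differed by 0.11 and had the widest spread. The Id1 difference was 0.0083 with repeated quantile normalization. Without 1 array it ranged from -0.047 to 0.029 for Id1, -0.15 to 0.0080 for Id2, -0.063 to 0.038 for Mdk, -0.020 to 0.037 for Prom1, -0.012 to 0.11 for Sox2, -0.051 to 0.13 for Sox3, -0.11 to 0.039 for Mfge8 and -0.071 to 0.33 for Nr2f2. Fabp7 and Dbi kept their sign, with ranges from -0.058 to -0.0099 and from 0.019 to 0.084. The cause was not tested. No detection calls were at hand, so how far a signal lies above background is not known.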
